A study of Mus musculus with 2 samples.

Results

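The 10 transcription factors that define the oligodendrocyte lineage, Olig1, Olig2, Sox8, Sox10, Myrf, Nkx2-2, Nkx6-2, Tcf7l2, Zfp488 and St18, were followed through the lineage in hippocampal nuclei. They were found by gene symbol among the 33,696 genes counted, and all 10 were present. All mice were 19 days old. The Control library was made from Cic flox/flox mice, which carry a floxed allele of Cic, the gene of the transcriptional repressor Capicua. The other library came from littermates that were Emx1-Cre; Cic flox/flox, and is called here the library labelled knockout. In both of the 2 libraries, nuclei of 3 mice (2 males, 1 female) had been combined before capture, with 1 hippocampus taken per mouse. The 2 males of a pool therefore cannot be separated. Emx1-Cre acts in progenitors of the dorsal forebrain, whereas forebrain oligodendrocytes arise from both ventral and dorsal progenitors. Lineage nuclei that kept the floxed allele and nuclei that lost it therefore cannot be told apart in the library labelled knockout.

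Oligodendrocyte precursors divide, commit to differentiation and then make myelin, the insulating sheath of axons. Olig2 and Sox10 act through the whole lineage, Nkx2-2 and Tcf7l2 mark and drive the step into differentiation, and Myrf switches on and maintains myelin genes. Capicua represses its targets at a short octamer, and its best known targets are the Etv factors and the feedback inhibitors of receptor tyrosine kinase signalling.

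Promoters of 6 of the 10 genes were held by the RefSeq promoter table for GRCm38.p6, Tcf7l2 with 2 start sites. Each window runs from 250 bases before to 50 bases after a start site. The octamers TGAATGAA and TCAATGAA, searched on both strands, occurred in 1 of these 7 windows, that of Olig2. Of all 32,851 windows held there, 2.03% held at least 1 of the octamers. The Olig2 window is shown with its match in capitals, TTCATTGA, which reads TCAATGAA on the other strand. The upstream Tcf7l2 window, which held neither octamer, is shown because Tcf7l2 was the factor at least 2-fold apart among values with at least 50 UMIs and 10 CPM (counts scaled to the same total for each class and library). Both are on the plus strand and are written 5′ to 3′.
Olig2, chr16:91225300-91225599: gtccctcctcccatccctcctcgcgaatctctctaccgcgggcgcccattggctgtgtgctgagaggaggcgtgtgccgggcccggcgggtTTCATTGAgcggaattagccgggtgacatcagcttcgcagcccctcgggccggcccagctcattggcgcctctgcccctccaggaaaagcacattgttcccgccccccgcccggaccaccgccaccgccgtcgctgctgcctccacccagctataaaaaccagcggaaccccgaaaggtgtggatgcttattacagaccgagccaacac
Tcf7l2, chr19:55741560-55741859: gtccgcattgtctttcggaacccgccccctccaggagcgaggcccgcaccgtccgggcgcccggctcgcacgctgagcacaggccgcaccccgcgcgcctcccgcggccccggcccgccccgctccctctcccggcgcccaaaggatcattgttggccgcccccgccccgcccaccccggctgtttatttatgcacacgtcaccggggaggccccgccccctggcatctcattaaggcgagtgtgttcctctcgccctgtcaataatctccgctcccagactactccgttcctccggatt

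After filtering and removal of called doublets (12.75% of Control nuclei and 10.9% of those labelled knockout), 21,865 and 20,531 nuclei were used, with median depths of 9790 and 8766 UMIs. A UMI is a molecular tag that counts 1 captured RNA. Nuclei were clustered without the 10 factors and clusters were named from markers that include none of them. All 12 precursor, 12 committed precursor and 16 mature markers had UMIs in the class named after them. They also had UMIs in the classes named after the other lists, so their presence alone does not tell these classes apart. In all, 175 barcodes occurred in both libraries. Between 1 and 11 nuclei of each lineage group described below carried such a barcode in each library, so leaving them out could change little. It moved none of the 40 log2 ratios of the factors beyond its counting interval.

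Precursor-like nuclei numbered 987 in the Control library and 1081 in the library labelled knockout. Committed precursor-like nuclei, which carry Gpr17, Bmp4 and Enpp6, numbered 513 and 506. Mature oligodendrocyte-like nuclei numbered 904 and 587. A further cluster of 235 and 317 nuclei, led by Casr and Tnni1, lay between the committed and mature classes. It was closest to the mature set, but its 10 leading genes held 2 committed markers and 0 mature ones, so it was left without a cell type name and is called the intermediate cluster. Since genes that differ between the libraries can shift cluster borders, shares were read from another clustering. It left out the genes that were at least 2-fold apart in the precursor-like, committed or mature-like class. Genes 2-fold apart in the intermediate cluster alone were kept in it. There, mature-like nuclei made up 5.02% of Control nuclei and 4.1985% of nuclei labelled knockout, precursor-like nuclei 4.58% and 5.31%, and committed precursor-like nuclei 2.67% and 2.86%. That clustering had no intermediate cluster.

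For 7 of the 10 factors the same group of nuclei had the highest level in both libraries. The exceptions were Olig1, Myrf and St18, each highest in the intermediate cluster of the Control library. Genes were counted as apart at a difference of at least 2-fold, provided that the higher of both libraries reached 50 UMIs and 10 CPM. Of the 40 values (10 factors in 4 groups of nuclei), 36 had the minimum counts, and 1 passed: Tcf7l2, higher in mature-like nuclei of the library labelled knockout. Counted over all 40 values, whatever their counts, 36 were less than 1.5-fold apart, and the counting intervals of 14 left out no difference. No share of all genes under 1.5-fold is given beside this count, so it describes the factors alone. With 1 library per group no difference could be tested. Every interval given is a 95% interval for counting error alone, which leaves out differences between mice and between preparations. Intervals of UMI sums and of their ratios also leave out the spread between nuclei, and are too narrow where nuclei differ strongly.

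For comparison, 0.181% of 9416 genes with the minimum counts were higher and 0.0425% lower by the same rule in precursor-like nuclei. In committed precursor-like nuclei these shares were 1.14% and 0.28% of 7867 genes, in the intermediate cluster 3.26% and 1.16% of 6107, and in mature-like nuclei 2.5% and 1.16% of 8161. The median log2 ratio of the factors (labelled knockout over Control, over those with at least 20 UMIs) was −0.07, −0.15, −0.24 and −0.07 in the same order. The medians over all genes with 20 UMIs were 0.03, 0.03, −0.05 and −0.08.

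**Figure D1:**
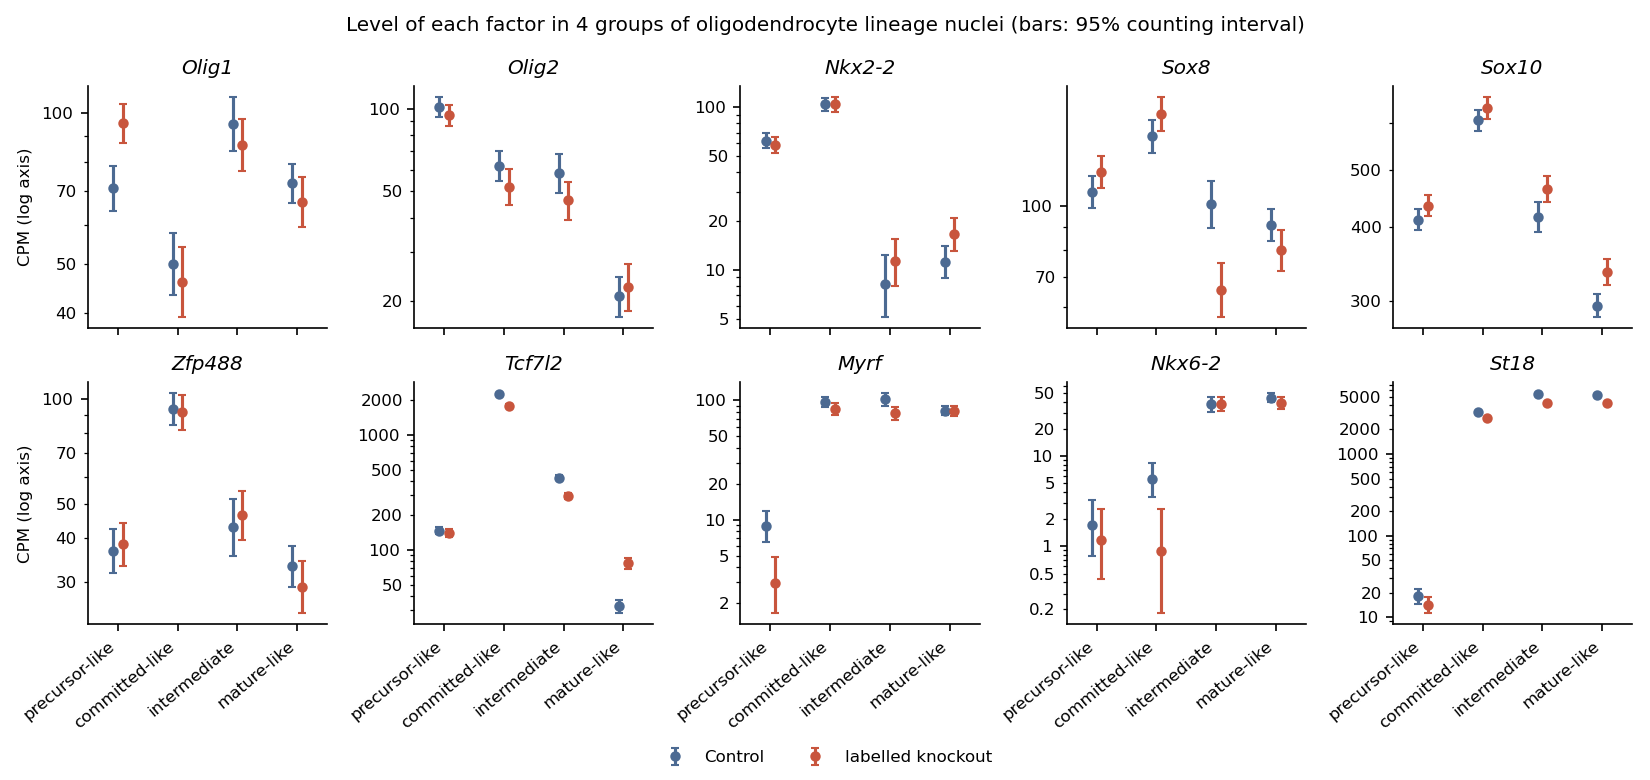
Level of each factor (CPM, log axis) in precursor-like, committed-like, intermediate and mature-like nuclei of the Control library and of the library labelled knockout, with 95% Poisson intervals for counting error. Tcf7l2 peaked in committed nuclei in both libraries and was 32.4 CPM in Control and 76.8 CPM in labelled knockout mature-like nuclei.

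Olig1 and Olig2 are paired basic helix-loop-helix factors that specify the lineage. Olig2 was highest in precursor-like nuclei and lowest in mature-like nuclei. Its Control levels were 101 CPM in precursor-like, 62.1 in committed, 58.3 in intermediate and 20.7 in mature-like nuclei. In the library labelled knockout they were 94.8, 52.1, 46.4 and 22.4 CPM. The 4 log2 ratios lay between −0.33 and 0.12, and each counting interval included no difference. Olig2 is the factor with the octamer in its promoter window shown above.

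Olig1 was highest in the intermediate cluster in the Control library (95.1 CPM) and in precursor-like nuclei with the knockout label. It was at 70.9 CPM in Control precursor-like nuclei (373 UMIs) and 95.4 CPM in those labelled knockout (486 UMIs), a log2 ratio of 0.43 (0.23 to 0.63). In female nuclei of this class the ratio was 0.25 (−0.09 to 0.58) and in male nuclei 0.70 (0.38 to 1.02). An Olig1 UMI was found in 29.3% and 34.0% of precursor-like nuclei, and in 2.303% and 2.17% of microglia-like nuclei, a cell type outside the lineage, at median depths of 5195 and 4644 against 2154.5 and 1718.5 UMIs. In committed, intermediate and mature-like nuclei the Olig1 ratios were −0.12, −0.14 and −0.12, with intervals that included no difference.

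Nkx2-2, a homeobox repressor needed for timely differentiation, was highest in committed precursors, at 104 CPM in each library (412 and 357 UMIs), a log2 ratio of 0.00 (−0.21 to 0.21). Precursor-like nuclei had 62.5 and 58.9 CPM. In mature-like nuclei it was low, with 76 Control UMIs and 77 labelled knockout, which are 11.2 and 16.6 CPM. That is a log2 ratio of 0.56 (0.09 to 1.04), and it was 0.44 in female and 0.53 in male nuclei. An Nkx2-2 UMI was found in 7.63% and 10.9% of mature-like nuclei, against 0.60% and 0.31% of dentate granule-like nuclei. Astrocyte-like nuclei had one in 3.86% and 4.43%, at 9.15 and 12.1 CPM. The clusters and marker differences of mature-like nuclei are given below for Tcf7l2. Their part in the Nkx2-2 ratio was not tested. In the annotation used for gene positions (GENCODE for GRCm38) Nkx2-2 overlaps Nkx2-2os and 6430503K07Rik, Nkx6-2 overlaps Inpp5a, Olig1 overlaps Gm15966 and Sox8 overlaps Cerox1, all on the other strand, and their counts are uncertain to that extent.

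Sox10 and Sox8 are related SoxE factors, of which Sox10 is needed for myelin gene transcription. Control levels of Sox10 were 412 CPM in precursor-like, 606 in committed, 416 in intermediate and 294 in mature-like nuclei, and those labelled knockout 435, 636, 465 and 336 CPM. All 4 ratios were above 0, at 0.08, 0.07, 0.16 and 0.19, and the intervals of the last 2 left out no difference (0.05 to 0.27 and 0.09 to 0.29). In male nuclei alone the first 2 were −0.03 and −0.03. With mature-like nuclei corrected for the RNA found in dentate granule-like nuclei the last was −0.05.

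Sox8 had its highest level in committed precursors, at 143 CPM in the Control library and 159.8 in the library labelled knockout. It was lower in the intermediate cluster of the library labelled knockout, with 272 UMIs against 215, or 101 and 65.6 CPM, a log2 ratio of −0.62 (−0.89 to −0.36). The ratio was −0.62 in female and −0.64 in male nuclei, and it lay between −0.80 and −0.53 in the 11 other settings that held this cluster. At resolution 2, with doublets kept and without the genes 2-fold apart there was no such cluster. In these nuclei the committed markers summed to 3037 CPM in the Control library and 2444 in the library labelled knockout, with a median log2 ratio of −0.44 and 8 of 10 lower. The astrocyte markers summed to 88.4 and 163 CPM there, with 1 and 0 of 8 at 0 UMIs. The CA1 markers summed to 3818 and 5675 CPM, of which Pex5l alone made up 1457 and 3425. The part of these marker differences in the Sox8 ratio was not tested. A Sox8 UMI was found in 61.7% and 42.9% of intermediate nuclei, against 7.41% and 9.85% of dentate granule-like nuclei, at median depths of 11,002 and 10,187 against 11,788 and 10,859 UMIs. In precursor-like and committed nuclei Sox8 was slightly higher, at 0.15 and 0.16, and in mature-like nuclei slightly lower, at −0.18, all with intervals that included no difference. Zfp488, a zinc finger partner of Olig2, followed the course of Sox10, with 93.7 and 91.6 CPM in committed precursors and between 29.1 and 46.7 CPM elsewhere. Its 4 ratios lay between −0.19 and 0.11.

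Tcf7l2, a member of the TCF/LEF family of factors that carry Wnt signals to target genes, was a marker of commitment in these nuclei. In the Control library it had 147 CPM in precursor-like nuclei, 2256 in committed, 428 in the intermediate cluster and 32.4 in mature-like nuclei. In the library labelled knockout the levels were 141, 1799.6, 296 and 76.8 CPM. The peak was thus lower and the level at the end of the lineage higher in the library labelled knockout. The annotation places Ppnr on the same strand within the span of Tcf7l2, so their reads are not fully separable.

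In mature-like nuclei Tcf7l2 had 219 UMIs in 904 Control nuclei and 356 UMIs in 587 nuclei labelled knockout. The log2 ratio was 1.24 (1.00 to 1.49), or 2.37-fold, with 1.499 (1.01 to 2.03) in female and 1.07 (0.70 to 1.44) in male nuclei. A UMI was found in 15.6% of Control nuclei (13.3% to 18.1%) and in 32.2% of those labelled knockout (28.4% to 36.1%). After each nucleus was thinned to 2000 UMIs, which left out 11 and 15 shallower nuclei, these became 5.82% and 11.4%. Dentate granule-like nuclei served as background because microglia express Tcf7l2. There 1.20% and 1.22% of nuclei had a UMI (0.323% and 0.398% after thinning), with medians of 11,788 and 10,859 UMIs per nucleus. Most of the UMIs came from nuclei with few: 4 Control nuclei and 11 nuclei labelled knockout had 5 or more Tcf7l2 UMIs, and they held 31 of the 219 and 85 of the 356.

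The size of this difference varied with the nuclei taken as mature-like. It was 0.94 at a finer clustering, 0.64 in the clustering without the genes 2-fold apart, 0.46 with doublets kept and 0.21 when the intermediate cluster was joined to the mature class, and in those 4 settings it was below 2-fold. The mature-like class of the main clustering was 1 cluster. At the finer clustering the class was broader and joined 2 clusters that the libraries filled in opposite proportions, with 397 and 652 nuclei in one and 670 and 181 in the other. The finer clustering kept genes that differ between the libraries, and such genes can shift cluster borders. In the clustering without the genes 2-fold apart, mature-like nuclei were 1 cluster of 1098 Control nuclei and 862 labelled knockout. Whether mature-like nuclei of both libraries differed in make-up, and its part in the ratio, was not tested. The 12 committed markers summed to 1156 and 1127 CPM in mature-like nuclei, of which Bcas1 made up 606 and 442. Of the 9 with the minimum counts, 1 was higher and 1 lower by the 2-fold rule. The 12 precursor markers summed to 485 and 381 CPM, of which Pcdh15 made up 189 and 98.5. Markers of 2 other cell types that express Tcf7l2 were also present. The 8 astrocyte markers summed to 225 and 334 CPM, of which Slc1a3 made up 134 and 266, and the 8 microglia markers to 95.7 and 79.6 CPM. No marker of either list was at 0 in either library, and their part in the result was not tested. The 7 CA1 markers summed to 2561 and 4572 CPM, of which Pex5l made up 937 and 3419.

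At the peak, in committed precursors, 8905 Control UMIs stood against 6150 labelled knockout for Tcf7l2, which gives a log2 ratio of −0.33 (−0.37 to −0.28). The median nucleus had 11 UMIs in the Control library (quartiles 3 and 27) and 5.5 in the library labelled knockout (1.25 and 19). The ratio was −0.06 (−0.14 to 0.02) in female nuclei and −0.36 (−0.43 to −0.29) in male nuclei. Committed nuclei labelled knockout were placed lower on a maturation score (mature minus precursor markers, without the factors), with a median of −0.88 against −0.57. In these nuclei 9 of 12 precursor markers were higher, 1 of them past the 2-fold rule, and 11 of 13 mature markers were lower. Whether the lower score is a difference in maturity or in the expression of these markers was not tested. The committed markers, which the score does not use, were lower too, 10 of 12 of them and 1 past the 2-fold rule. They summed to 14,176 CPM in the Control library and 13,055 in the library labelled knockout. Their part in the Tcf7l2 ratio was not tested. With committed nuclei weighted to the Control spread of the score the Tcf7l2 ratio was −0.16. In the intermediate cluster the ratio was −0.53 (−0.66 to −0.41), with −0.41 in female and −0.84 in male nuclei. The committed markers (median −0.44) and the astrocyte markers differed in these nuclei as given for Sox8, and their part in the Tcf7l2 ratio was not tested.

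**Figure D2:**
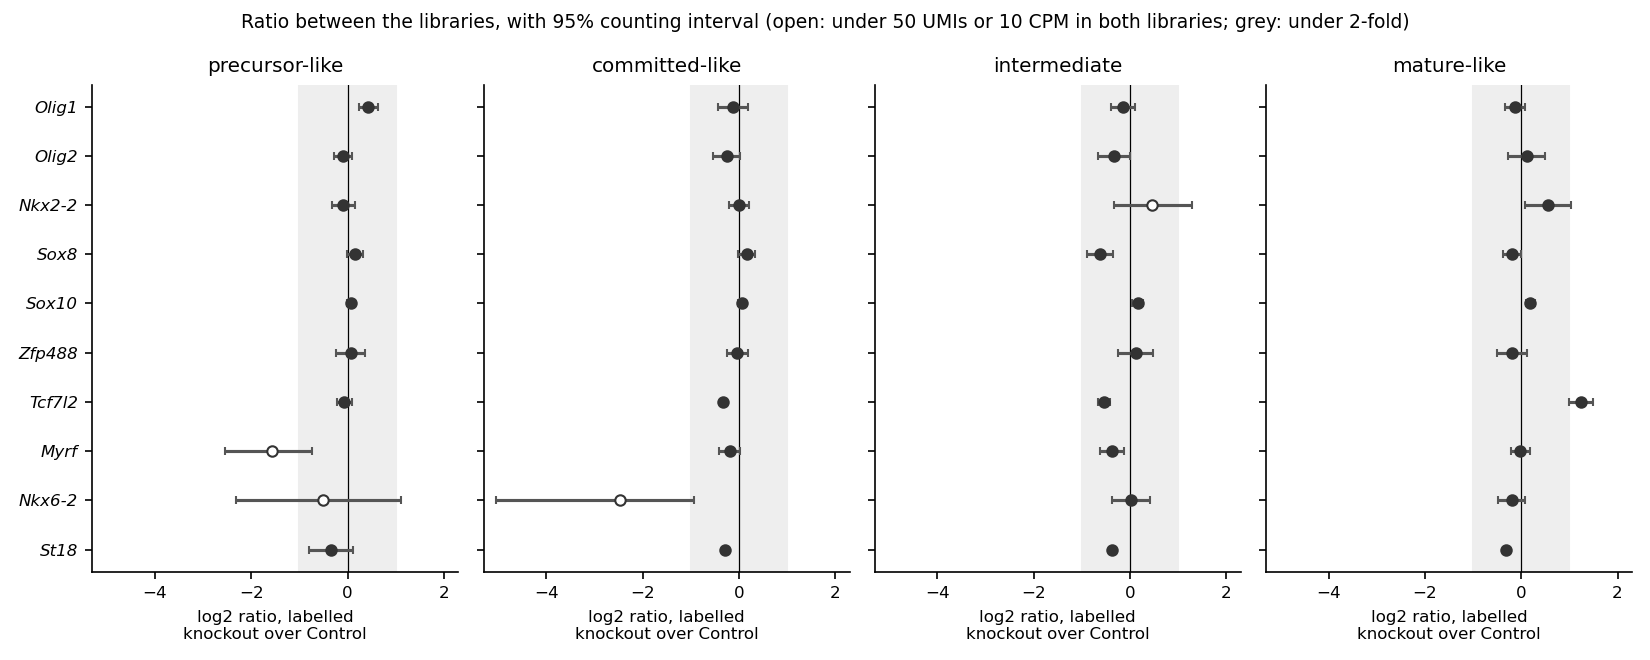
Log2 ratio of the library labelled knockout over Control for each factor in the 4 groups of nuclei, with 95% counting intervals. Open points lack 50 UMIs or 10 CPM in both libraries, and grey marks differences under 2-fold. Among filled points, Tcf7l2 in mature-like nuclei, at 1.24, is the one outside the grey band.

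Myrf, the membrane-bound activator of myelin genes, was low in precursors, followed by a plateau of 97.3, 102 and 82.2 CPM in committed, intermediate and mature-like Control nuclei. In the library labelled knockout the plateau was at 85.2, 78.4 and 81.3 CPM, with ratios of −0.19 (−0.42 to 0.03), −0.38 (−0.63 to −0.13) and −0.02 (−0.21 to 0.17). For the intermediate cluster, the marker differences given for Sox8 hold here too, and their part in the Myrf ratio was not tested. In precursor-like nuclei Myrf had 47 Control UMIs and 15 labelled knockout. Its ratio was −1.57 (−2.55 to −0.74), but with fewer than the minimum of 50. With doublets kept it was −0.69. The mature markers were lower in these precursor-like nuclei too, with a median log2 ratio of −0.37 and 11 of 14 lower. Their part in the Myrf ratio was not tested. A Myrf UMI was found in 4.56% of Control precursor-like nuclei and 1.30% of those labelled knockout, against 0.69% and 0.40% of dentate granule-like nuclei.

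Nkx6-2, a homeobox factor of myelinating cells, was nearly absent before the intermediate cluster. It had 37.5 and 38.1 CPM there and 44.4 and 38.6 CPM in mature-like nuclei, with ratios of 0.02 (−0.37 to 0.42) and −0.20 (−0.48 to 0.07). In committed precursors 22 Control UMIs stood against 3, a ratio of −2.48 (−5.05 to −0.93). This value rests on few counts and moved to −0.94 in the clustering without the genes 2-fold apart, −0.46 at the finer clustering and −0.18 with doublets kept.

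St18, a zinc finger factor of the Myt family, was the most abundant of the 10 by UMIs and came on with commitment. It went from 18.2 CPM in precursor-like Control nuclei to 3311 in committed, 5450.2 in intermediate and 5314 in mature-like nuclei. In the library labelled knockout it had 14.3, 2725, 4192 and 4263 CPM. The log2 ratios after commitment were −0.28 (−0.32 to −0.24), −0.38 (−0.41 to −0.35) and −0.32 (−0.34 to −0.29). Marker differences in the intermediate cluster are given for Sox8, and their part in the second ratio was not tested. The last compares mature-like nuclei that the finer clustering placed mostly in different clusters in each library, as given for Tcf7l2, and it was −0.33 there. All 3 stayed below 0 in female nuclei (−0.25, −0.43 and −0.57) and in male nuclei (−0.22, −0.37 and −0.12). With committed nuclei weighted to the Control spread of the maturation score, whose markers differed as given for Tcf7l2, their St18 ratio was −0.16. The median nucleus of the intermediate cluster held 57 St18 UMIs in the Control library and 38 in the library labelled knockout, and that of the mature class 34 and 29.

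**Figure D3:**
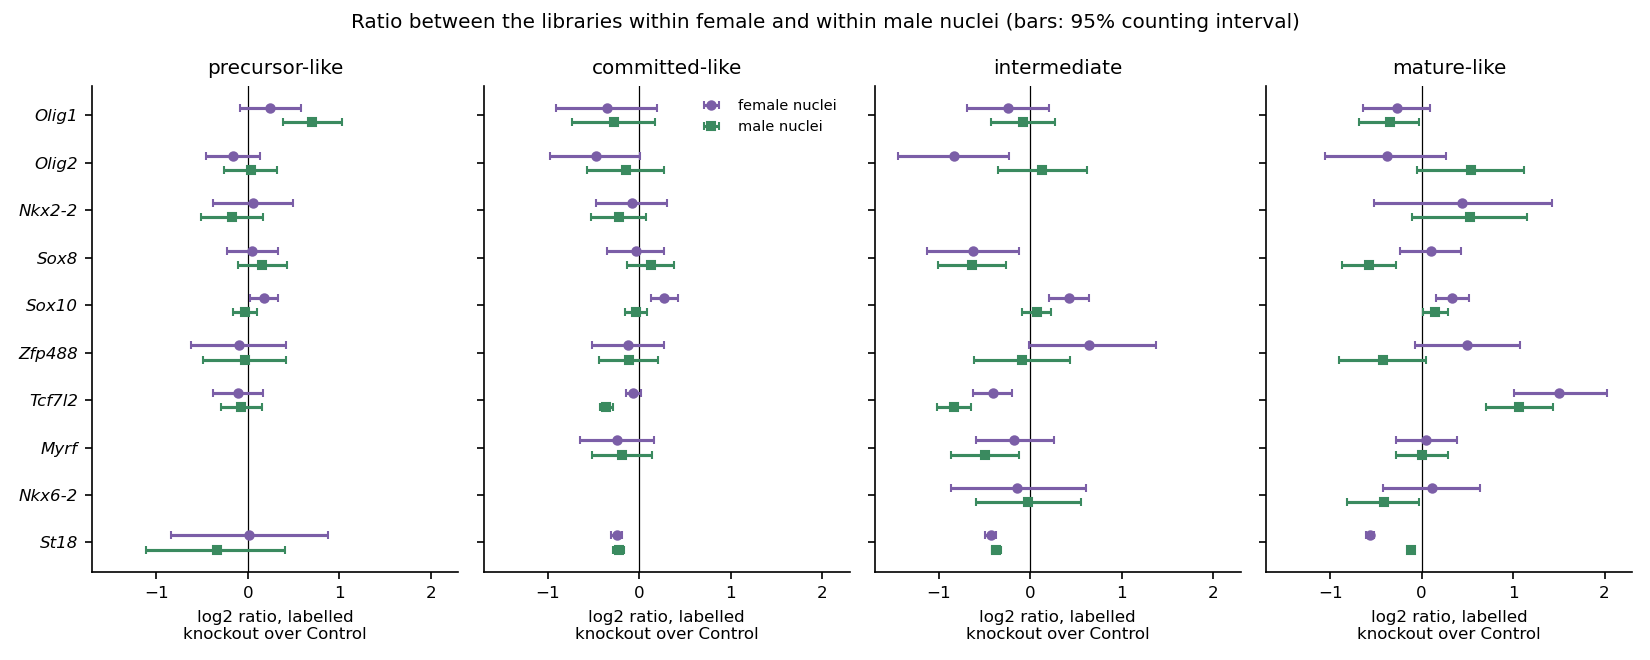
Log2 ratio of the library labelled knockout over Control within female nuclei (circles) and within male nuclei (squares) for each factor with the minimum counts, with 95% counting intervals. St18 lies left of 0 in both from the committed precursors on, and Tcf7l2 lies right of 0 in both in mature-like nuclei.

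Only 1 of the 3 mice in each pool was female, so female nuclei have a single source and male nuclei have 2. Nuclei were assigned by Xist and Y-linked UMIs, and the split checks each pool without adding replicates. In the Control library 6456 nuclei were called female and 9500 male, and in the library labelled knockout 6284 and 9120. The others had no call, so a ratio over all nuclei can lie outside those of both sexes. Of the 36 values with the minimum counts, 24 kept 1 sign across both sexes. The share of all genes that did so is not given, so this count is a description. Olig2 in mature-like nuclei (−0.38 and 0.54) and Zfp488 in mature-like nuclei (0.50 and −0.42) had opposite signs, each with intervals that included no difference. Sox8 in mature-like nuclei was 0.10 (−0.24 to 0.43) in female and −0.57 (−0.88 to −0.28) in male nuclei.

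To follow the factors along maturation, the nuclei of the 3 named classes were divided into 8 ranges of the maturation score, with limits that split Control nuclei evenly. Nuclei of the intermediate cluster were left out, except where stated below. The ranges held 300 or 301 Control nuclei each, and from the lowest to the highest 336, 330, 360, 317, 244, 276, 165 and 146 nuclei labelled knockout. Nkx2-2 peaked in range 4, at 180.2 CPM in the Control library and 158 in the library labelled knockout. Tcf7l2, Sox10, Zfp488 and Myrf peaked in range 5 in both libraries, at 3097 and 2727, 643 and 710.2, 103 and 98.4, and 113 and 106 CPM. St18 had its highest level in range 7 in the Control library, 5580.5 CPM, and in range 6 in the library labelled knockout, 4433 CPM. Nkx6-2 was highest in the last range, at 50.6 and 56.7 CPM. Nkx2-2 thus peaked before Tcf7l2, Sox10, Zfp488 and Myrf in both libraries.

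The Tcf7l2 ratio was between −0.25 and 0.00 in the first 6 ranges. In the last 2 it was 1.27 (0.82 to 1.72), from 73 and 104 UMIs, and 1.00 (0.44 to 1.55), from 58 and 55 UMIs. With the nuclei of the intermediate cluster included these 2 values were 0.77 and 0.86, and that of range 6, where 137 and 224 of those nuclei lay, went from −0.25 to −0.53. The St18 ratio was −0.03, −0.19, −0.26, −0.40 and −0.35 from range 4 to range 8. In ranges 2 and 3 St18 was higher in the library labelled knockout, with 10 and 23 UMIs and then 41 and 102 UMIs, ratios of 1.27 (0.18 to 2.54) and 1.22 (0.70 to 1.79). Range 3 held 6 committed nuclei in the Control library and 27 in the library labelled knockout. The level of a factor in a range is a description, since the score uses the same nuclei. Markers of the score also differed between the libraries in committed nuclei, as given for Tcf7l2.

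**Figure D4:**
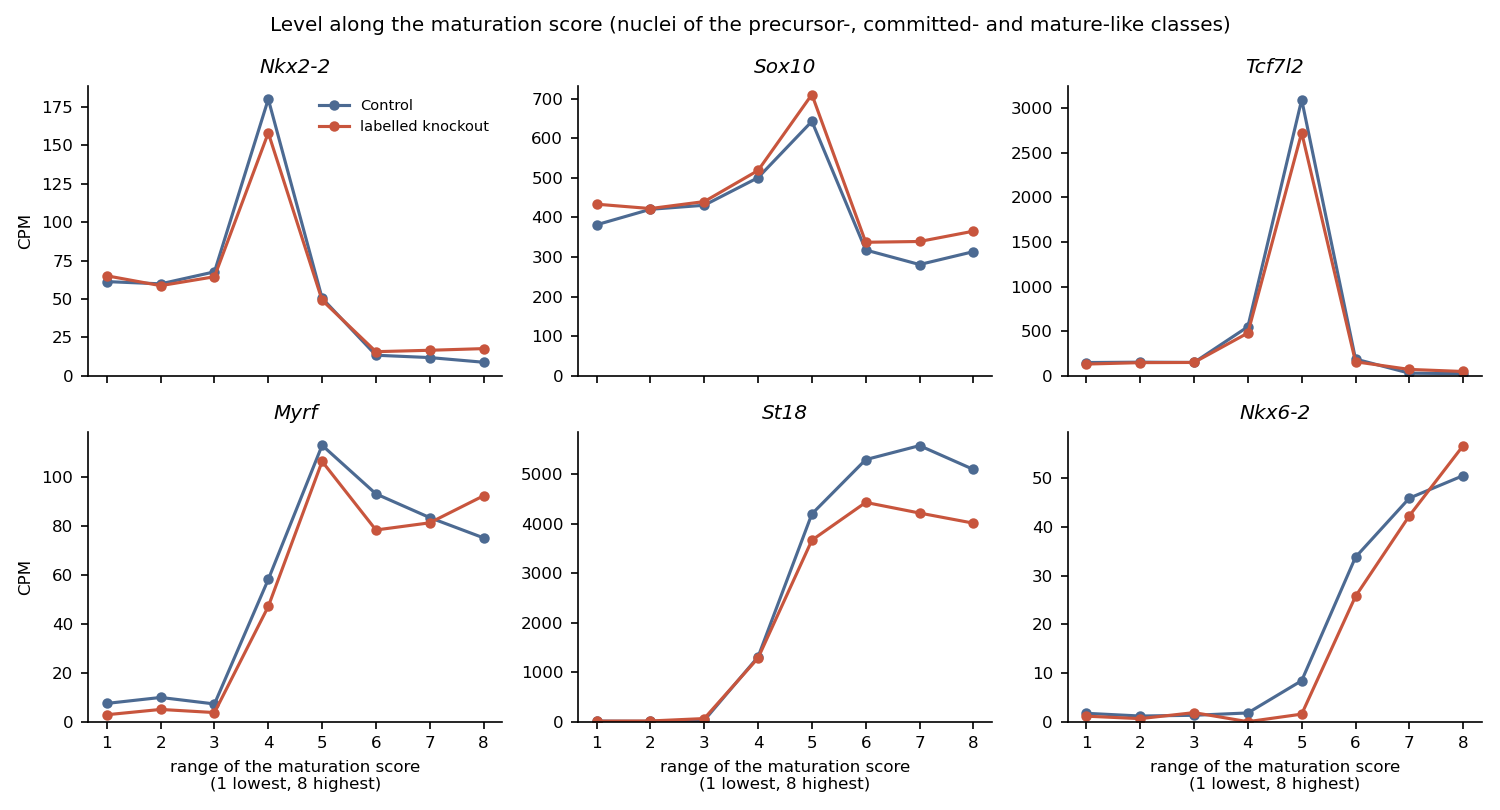
Level (CPM) of 6 factors in 8 ranges of the maturation score, from lowest to highest, in the Control library and the library labelled knockout. Nuclei of the intermediate cluster are left out. Nkx2-2 peaks in range 4 and Tcf7l2 and Sox10 in range 5 in both libraries, and the St18 curve of the library labelled knockout lies below that of Control from range 5 on.

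Nuclei with UMIs of both members of a pair were counted as well. Myrf and Tcf7l2 were found together in 44.2% of committed Control nuclei and 36.2% of those labelled knockout, and in 7.30% and 17.9% of mature-like nuclei. Myrf and St18 were found together in 44.1% and 36.0% of committed nuclei and 42.5% and 45.8% of mature-like nuclei. Sox8 and Sox10 were together in 57.9% and 40.7% of intermediate nuclei and in 33.7% and 33.5% of precursor-like nuclei. Olig1 and Olig2 were together in 14.6% and 14.1% of precursor-like nuclei. These shares depend on depth, which was 7192 and 6216 UMIs at the median in committed and 7282.5 and 7381 in mature-like nuclei.

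Of the 2 clusters named cycling progenitor-like, 1 had the precursor markers as its next best set. It held 97 and 102 nuclei and was led by cell cycle genes such as Kif18b, Top2a and Cdk1. Sox10 was at 312 CPM in each library there (206 and 180 UMIs), Olig1 at 81.7 and 86.8 CPM and Olig2 at 92.3 and 67.7 CPM. Myrf had 1 UMI in each library. St18 had 15 and 6 UMIs. No factor in this cluster had an interval that left out no difference except Zfp488, with 10 and 20 UMIs, a ratio of 1.16 (0.04 to 2.46).

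Over the 18 groups of nuclei with at least 50 in each library (17 named classes and the intermediate cluster), each of the 10 factors had its highest level in a lineage group. Outside the lineage and the cycling class the highest Sox10 level was 11.6 CPM, in fibroblast-like nuclei labelled knockout. Tcf7l2, St18 and Sox8 were also found in other cells, as were some other factors at low levels. Olig2 stood at 8.10 and 13.8 CPM in astrocyte-like nuclei, a ratio of 0.76 (0.33 to 1.21). A Myrf UMI was found in 10.0% and 8.88% of CA3-like nuclei. Sox8 stood at 54.2 and 57.5 CPM in astrocyte-like nuclei (21.1% and 20.1% with a UMI), a ratio of 0.09 (−0.10 to 0.27). Below 10 CPM, its ratio was 0.51 (0.29 to 0.73) in dentate granule-like and 0.47 (0.20 to 0.74) in CA1-like nuclei. In CA3-like nuclei it was −0.92 (−1.52 to −0.38). Tcf7l2 stood at 375 and 386 CPM in astrocyte-like, 321 and 343 in radial glia-like, 294 and 255 in fibroblast-like and 269.6 and 267 CPM in microglia-like nuclei, with log2 ratios of 0.04, 0.10, −0.21 and −0.02 and intervals that included no difference. St18 stood at 239 and 315 CPM in dentate granule-like nuclei (12,769 and 11,634 UMIs), a ratio of 0.40 (0.36 to 0.43), and at 62.1 and 95.3 CPM in immature dentate granule-like nuclei, a ratio of 0.62 (0.50 to 0.74). The dentate granule class joins 2 clusters that the libraries fill unequally. One held 1216 Control nuclei and 3165 labelled knockout, and the other held 3117 and 104. The St18 and Sox8 ratios of this class therefore compare nuclei of largely different clusters. An St18 UMI was found in 82.9% and 86.7% of dentate granule-like nuclei, against 3.22% and 2.61% of astrocyte-like nuclei, at median depths of 4601 and 4116 UMIs. In CA3-like nuclei St18 stood at 180.5 and 170.5 CPM, a ratio of −0.08. In CA2-like nuclei it stood at 22.4 and 3.74 CPM (78 and 9 UMIs), a ratio of −2.51 (−3.76 to −1.58). Only 8.97% of 145 and 6.90% of 116 CA2-like nuclei had a UMI of it.

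**Figure D5:**
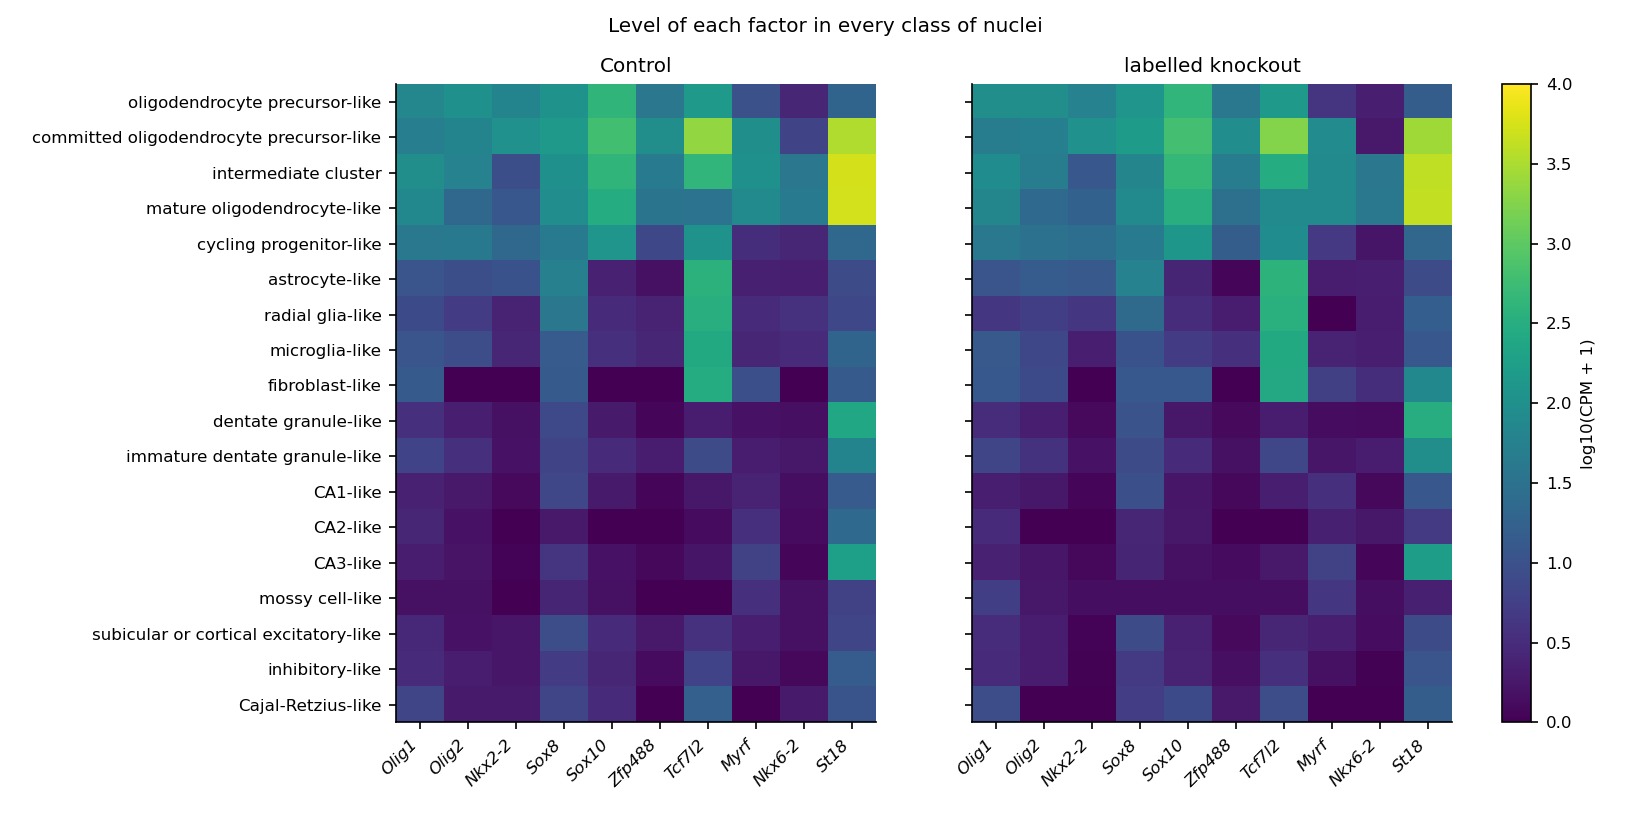
Level of each factor, as log10(CPM + 1), in 18 groups of nuclei of the Control library (left) and the library labelled knockout (right). Sox10 and Zfp488 are bright in the lineage rows, Tcf7l2 also in astrocyte-, radial glia- and microglia-like nuclei, and St18 also in dentate granule- and CA3-like nuclei.

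The gene most like each factor was sought by the Pearson correlation of log2(CPM + 1) over the 18 groups in both libraries (36 points, among 14,771 genes). Points of 1 library share its depth and preparation, so these values are descriptions. Sox10 and Zfp488 were most like each other, at 0.97, and Olig2 and Nkx2-2 were most like each other, at 0.93. Nkx6-2 was closest to the myelin genes Ermn (0.97) and Opalin (0.96), and St18 to Mbp (0.89), the gene of myelin basic protein. Tcf7l2 was closest to Itpr2 (0.95), Olig1 to Pllp (0.95), Myrf to Cldn14 (0.94) and Sox8 to Plekhb1 (0.91).

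Genes around the factors were taken from 4 lists. Of 33 other regulators of the lineage, such as Sox6 and Zfp536, 28, 23, 19 and 20 had the minimum counts from precursor-like to mature-like nuclei, and 0 of these were at least 2-fold apart, with medians from −0.10 to 0.05. Of 20 genes of the Wnt pathway, in which Tcf7l2 acts, 14, 12, 10 and 12 had the minimum counts and 0 of these were at least 2-fold apart, with medians from −0.14 to −0.03. Of 21 myelin genes, 15, 15, 20 and 21 had the minimum counts, and 1 was at least 2-fold apart: Cntn2, which encodes an adhesion molecule of the myelinated axon, with 174 CPM in Control and 83.9 CPM in labelled knockout mature-like nuclei, a ratio of −1.05 (−1.22 to −0.88). The medians of the myelin list were −0.16, −0.25, −0.07 and −0.05 from precursor-like to mature-like nuclei. All-gene medians are given above.

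Known Capicua targets were counted in the same nuclei. Of 14 such genes, 1 was at least 2-fold higher in precursor-like nuclei, Dusp6, with 29 and 62 UMIs, while Etv4 and Etv5 stood at log2 ratios of 0.64 and 0.68. In committed precursors 6 of the 7 with the minimum counts were higher, in the intermediate cluster 6 of 6 and in mature-like nuclei 7 of 7, with 0 lower. The medians were 0.15, 2.20, 3.11 and 1.96. In mature-like nuclei Shc3 counts were 11 and 443 UMIs, with a ratio of 5.81 (5.02 to 6.89), and those of the ETS factor Etv5 were 8 and 289 UMIs, with a ratio of 5.63 (4.72 to 6.94). Etv4 had 8 and 172 UMIs (4.89) and Spred3 19 and 189 (3.82). Promoter windows were held for 9 of the 14 genes, and 2 of them, Spry2 and Spred3, had an octamer.

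Cic counts were not lower with the knockout label. It had 78 and 79 UMIs in precursor-like, 68 and 73 in committed, 89 and 155 in intermediate and 112 and 129 in mature-like nuclei, with log2 ratios of 0.07, 0.31, 0.51 and 0.75. Counts per gene do not show whether the floxed part was present in the transcripts, so they do not check the label.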

How the data were processed

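Nuclei from 2 pooled libraries were sequenced with the 10x Genomics 3′ GEM-X assay, per the labels' protocols. The values the authors deposited are whole UMI counts for each gene in each barcode, not normalized. The submitters' processing notes name Cell Ranger 8.0.1 and the build mm39. Gene overlaps came from the GENCODE annotation for GRCm38, which held 94.85% of the gene identifiers. Promoters came from the RefSeq table for GRCm38.p6, which held 6 of the 10 factors. No position of a counted gene in mm39 is given.

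Nuclei with under 500 genes or over 5% mitochondrial UMIs were left out, as were doublets called by Scrublet (scanpy 1.11.5). Both libraries were clustered together (3000 variable genes without the 10 factors, 30 components, 15 neighbours, Leiden resolution 1, leidenalg 0.10.2, Python 3.11.15). The best of 21 marker sets was that with the highest mean log2 fold over all other nuclei. A cluster took its name when that mean was at least 0.5 and at least 3 of its markers were raised. The 10 leading genes of the cluster also had to hold no more markers of another class than of its own. A cluster with a median depth under 1/3 of that of its library also needed at least 1 own marker among them. UMIs were summed per library and class, log2 ratios had 0.5 UMI added to each sum, and intervals are exact (Poisson, conditional binomial or Clopper-Pearson). The 4 groups held between 2,692,390 and 6,760,315 UMIs per library, and intervals cover counting error only. The size rule and intervals were run on simulated Poisson counts, without spread between nuclei, mice or preparations. That run therefore cannot show how well the intervals cover such spread in the real data. No test or p-value is given, since each group is 1 library.

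The factors, gene lists and markers were chosen with earlier results of these data known. All 10 factors are named. Of each list, up to 4 genes per class past the size rule were open to naming by the size of the ratio, and for each factor the 3 most similar genes. The closing section gives the other settings tried.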

Additional observations from a re-analysis of the deposited data

How the results depend on the processing

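The count of all genes at least 2-fold apart varied with the processing. In precursor-like nuclei it was 21, and 44 with doublets kept, 11 in male nuclei, 373 and 234 after subtraction of free RNA as found in microglia-like or dentate granule-like nuclei, and 157 with a minimum of 20 UMIs and none on CPM. In committed precursors it was 112, and 53 after thinning to 2000 UMIs, 260 and 312 after the subtractions and 273 with the lower minimum. In the intermediate cluster it was 270, and 99 after thinning, 437 with dentate granule-like nuclei as free RNA and 538 with the lower minimum. In mature-like nuclei it was 299, and 130 with doublets kept, 160 after thinning, 631 and 627 after the subtractions and 623 with the lower minimum. The cause of these shifts was not tested.

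The number of factors at least 2-fold apart went from 0 to 1 with the lower minimum in precursor-like nuclei (Myrf) and in committed precursors (Nkx6-2). In mature-like nuclei it went from 1 to 0 with doublets kept, at resolution 2, in the clustering without genes 2-fold apart and with the intermediate cluster joined. The share of mature-like nuclei labelled knockout over that of Control was 0.69, and 0.84 without genes 2-fold apart, 0.83 at resolution 2 and 0.82 with doublets kept. The subtraction could not be used for Tcf7l2 with microglia-like nuclei, nor for St18 with dentate granule-like nuclei, because those cells express the gene. The subtraction with dentate granule-like nuclei and the run without shared barcodes were among the settings chosen after seeing the data. No paired analysis was possible because each group is 1 library. Factors with few UMIs, such as Nkx6-2 before the intermediate cluster, are limited by depth.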
